A study of Homo sapiens with 45 samples.

Results

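The genes described here encode the collagens, the fibronectin-binding and other glycoproteins of the extracellular matrix, and the enzymes that hydroxylate and crosslink them. They are 38 named genes, each read from its brightest Affymetrix probe set among those annotated to that gene alone, with brightness taken over all 45 arrays. Of the 38, 37 had such a probe set, out of 19775 genes with one. COL17A1 was not analysed here. All 37 passed the filter on dim genes (a highest group mean above 4.89, the median of all log2 values, used here as a level near background), with 15511 genes tested in all. A value or call given for a gene is that of its brightest probe set unless another probe set is named.

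The study asked how far the response to epithelial miRNAs differs between cancer cells, using the ovarian cancer lines HEY and SKOV3 and the prostate cancer line PC3. Each line received 1 of 4 synthetic precursors at 33 nM with Lipofectamine, namely a negative control (miR-NC), miR-429, miR-205 or miR-203a, and RNA was taken at 48 h. A set of untransfected cells completed the 5 groups of each line, and every one of the 15 groups held 3 arrays. All groups were grown with serum, and all transfected groups, the controls included, share the lipid and a synthetic precursor. Nothing in the labels says that the 3 arrays of a group came from separate cultures, and p-values therefore reflect only how these arrays spread, which may be technical.

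Fibrillar collagens assemble into the load-bearing fibrils of connective tissue, while type IV collagen forms the sheet of the basement membrane and fibronectin links fibrils to integrins on the cell surface. Prolyl and lysyl hydroxylases modify collagen chains inside the cell, and lysyl oxidases then crosslink the secreted fibrils and stiffen them. Carcinoma cells of a mesenchymal state commonly make more fibronectin, collagen and lysyl oxidase than cells of an epithelial state. The miR-200 family, to which miR-429 belongs, and miR-205 are known for holding epithelial cells in that state, chiefly through repression of the ZEB factors, and miR-203 is a miRNA of stratified epithelium.

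The 3 miRNAs are shown first by sequence, since the seed is the part of a miRNA that pairs with its targets. The mature sequences below are RefSeq's, on GRCh38.p14, with the seed (bases 2 to 8) in capitals. The labels give the miRNA name without the arm, so the arm shown is the annotated guide strand for miR-203a and miR-205.
hsa-miR-203a-3p: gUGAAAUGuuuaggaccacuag
hsa-miR-205-5p: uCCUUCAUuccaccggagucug
hsa-miR-429: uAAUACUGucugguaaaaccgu
They lie at chr14:104117469-104117490, chr1:209432166-209432187 and chr1:1169055-1169076, all on the plus strand. No seed is shared between them. Target sites in transcripts were not searched here.

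Some facts of the whole data set bear on every value that follows. Array medians ran from 4.49 to 4.98 on the log2 scale, and no array pair held identical values. The GAPDH control probe set for the 5′ end of the transcript, a check of RNA and amplification quality, differed between groups that are compared here. Against miR-NC of the same line it was higher by 4.95 with PC3 miR-203a, by 3.66 with PC3 miR-205 and by 3.92 with HEY miR-205, and it fell by 2.11 with HEY miR-429, where the GAPDH control probe sets for the middle and the 3′ end rose by 1.65 and 1.31. In the other comparisons it moved by 0.58 or less in size, and in SKOV3 by at most 0.04. The RNA had been amplified from its 3′ end, and the part of this control's shift in the members' values was not tested. None of the 4 leukocyte markers with a probe set was above 4.89 on any transfected group, while 2 to 4 of the 5 fibroblast markers were. The mean level of 5 epithelial markers with miR-NC, miR-203a, miR-205 and miR-429 was 5.47, 5.77, 7.19 and 6.71 in HEY, 9.13, 9.27, 10.07 and 11.18 in SKOV3 and 8.44, 10.3, 10.16 and 8.43 in PC3. These means hide unlike markers. In the transfected HEY groups CDH1 (2.76 to 3.28) and EPCAM (3.47 to 4.26) stayed below 4.89. KRT18 there went from 8.76 with miR-NC to 12.93 with miR-205 and 12.21 with miR-429. In PC3 with miR-203a, KRT8 went from 5.8 to 9.07 and CDH1 from 9.83 to 10.71. The mean of the endothelial markers in HEY was 6.58, 6.4, 5.51 and 5.11 with miR-NC, miR-203a, miR-205 and miR-429. Among them CDH5, the cadherin of endothelial junctions, was at 9.89 with miR-NC and 11, 8.24 and 8.37 with the 3 miRNAs. FAP, one of the fibroblast markers, was at 8.65 in HEY with miR-NC, 7.46 with miR-205 and 6.17 with miR-429. Another, S100A4, went the other way in the same groups, at 5.05, 6.2 and 6.46. The mean of the 5 fibroblast markers there was 5.52, 5.61 and 5.19. The part of these markers in the members' values was not tested.

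The arrays labelled untransfected went against their labels. ERBB2, which is amplified in SKOV3, averaged 12.31 on the arrays labelled untransfected HEY and 7.6 on those labelled untransfected SKOV3. A set of 45 genes was chosen as clearly higher in every transfected HEY group than in any transfected group of the other lines. Of these, 100% were above 4.89 on the arrays labelled untransfected PC3 and 8.89% on those labelled untransfected HEY. The matrix genes showed the same displacement. SPP1 (osteopontin) averaged 13 on the arrays labelled untransfected HEY, beside 11.87 in SKOV3 with miR-NC and 9.04 in HEY with miR-NC. FBN2 averaged 4.84 there and 11.5 on the arrays labelled untransfected PC3. These arrays therefore enter no comparison below, although they contribute to the estimate of the spread. The transfected groups are named by their titles, and lineage markers of PC3 with miR-NC were mixed. The prostate marker HOXB13 averaged 6.56 there, 6.7 in SKOV3 with miR-NC and 11.73 on the arrays labelled untransfected SKOV3. Of the ovarian markers, WT1 averaged 9.61 in PC3 with miR-NC and 10.31 in HEY with miR-NC, and PAX8 averaged 6 and 10.42.

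With the control precursor, all 3 lines expressed most of the matrix genes, but different ones strongly. Of the 37, 32 lay above 4.89 in SKOV3, 32 in PC3 and 31 in HEY. In limma fits, 34 of 37 differed between SKOV3 and HEY (beside 78.5% of all genes called). Of these, 20 were higher in SKOV3 (beside 35%) and 14 lower (beside 43.5%). Between PC3 and HEY, 22 differed (beside 56.7%), with 13 higher in PC3 (beside 25.5%) and 9 lower (beside 31.2%). Between PC3 and SKOV3, 31 differed (beside 81.1%), with 13 higher in PC3 (beside 44.2%) and 18 lower (beside 36.9%). These 3 comparisons share arrays. The GAPDH 5′ control was 5.37 higher in SKOV3 than in HEY and 8.7 lower in PC3 than in SKOV3, and line and RNA state cannot be told apart here.

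**Figure D1:**
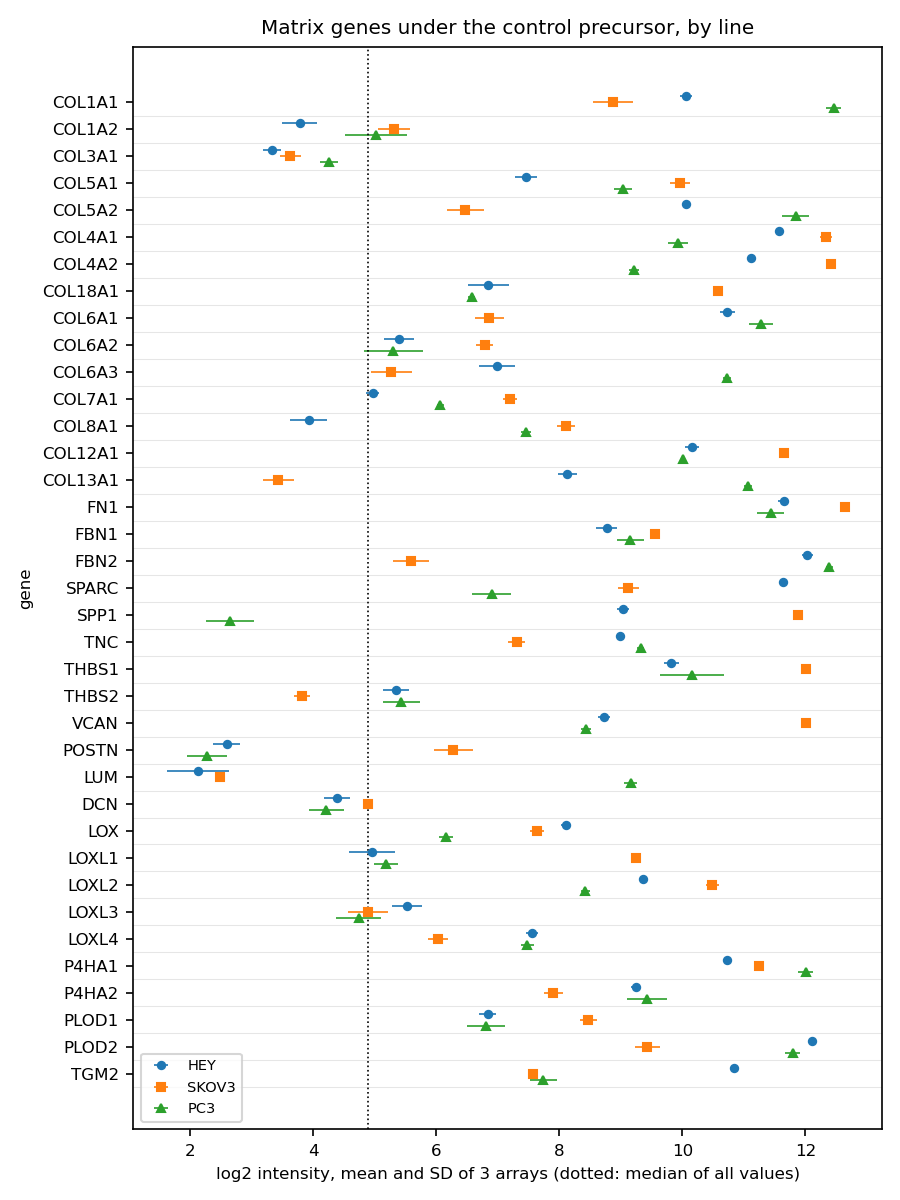
Level of each matrix gene with the control precursor, one row per gene grouped by role, as the mean of 3 arrays with its SD on the log2 scale. COL13A1, FBN2, LUM and SPP1 spread most between HEY (circles), SKOV3 (squares) and PC3 (triangles), while the brightest COL3A1 probe set lies left of the dotted line at 4.89 in every line.

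SPP1, a secreted phosphoprotein of bone and tumours, was high in SKOV3 at 11.83, 11.93 and 11.86 and intermediate in HEY at 9.01, 9.15 and 8.96. In PC3 it read 2.81, 2.2 and 2.92, near background. LUM (lumican, a small proteoglycan that regulates fibril width) had the opposite distribution, with 9.13, 9.28 and 9.08 in PC3 and nothing above 2.56 in HEY or SKOV3. Fibrillin 2, the microfibril protein encoded by FBN2, read 12.14, 11.99 and 11.97 in HEY and 12.32, 12.42 and 12.42 in PC3. In SKOV3 it read 5.51, 5.92 and 5.35. COL13A1, a membrane-spanning collagen, ordered the lines as PC3 (11.14, 11 and 11.06), HEY (8.08, 8.3 and 8.01) and SKOV3 (3.67, 3.17 and 3.47). None of these groups overlapped. The order for COL13A1 holds for its brightest probe set, since its others averaged 5.65 and 4.77 in HEY, 5.6 and 6 in SKOV3 and 6.69 and 5.89 in PC3.

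Among the other collagens, COL6A3 was highest in PC3 (10.79, 10.72 and 10.66), with 6.74, 7.31 and 6.93 in HEY and 4.89, 5.49 and 5.43 in SKOV3. COL5A2, a chain of the type V collagen that nucleates fibrils, read 12.1, 11.71 and 11.73 in PC3, 10.07, 10.06 and 10.03 in HEY and 6.55, 6.14 and 6.74 in SKOV3. COL6A1 was 3.86 lower in SKOV3 than in HEY (SE 0.15, adjusted p = 1.45e-22), and COL18A1, a basement membrane collagen, was 3.73 higher (SE 0.17, adjusted p = 3.33e-21). COL8A1 was higher than in HEY by 4.18 in SKOV3 and by 3.54 in PC3, and HEY was at 3.58, 4.04 and 4.16, below the background level. Type VIII collagen is best known from endothelium and the cornea.

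SPARC, a collagen chaperone and matricellular protein, read 11.61, 11.6 and 11.7 in HEY and 7.1, 7.08 and 6.54 in PC3, a difference of -4.73 (SE 0.37, adjusted p = 1.66e-13). TGM2, the transglutaminase that crosslinks fibronectin, was lower in PC3, where it read 7.73, 7.53 and 7.97 against 10.88, 10.79 and 10.85 in HEY (log2 difference -3.1, SE 0.19). LOXL1, a lysyl oxidase of elastic fibres, was 4.29 higher in SKOV3 than in HEY (9.23, 9.34 and 9.18 against 5.17, 4.52 and 5.18). The 3 pairs of groups do not overlap for these genes.

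Across the 9 comparisons of a miRNA with miR-NC in the same line, the number of matrix genes past the threshold lay near the share over all genes in most cases. A call here is a Benjamini-Hochberg adjusted p under 0.05 over all 15511 genes. With miR-203a, 9 members were called in HEY (beside 13.2% of all genes), 6 higher (beside 5.87%) and 3 lower (beside 7.32%). In SKOV3, 9 were called (beside 12%), 3 higher (beside 7.11%) and 6 lower (beside 4.91%). In PC3, 21 were called (beside 56.2%), 11 higher (beside 31.2%) and 10 lower (beside 25%). As shares of the 37 members, the 3 totals are 24.3%, 24.3% and 56.8%.

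With miR-205, 24 were called in HEY (beside 66%), 14 higher (beside 33.7%) and 10 lower (beside 32.3%). In SKOV3, 10 were called (beside 25.8%), 9 higher (beside 16.9%) and 1 lower (beside 8.83%). In PC3, 17 were called (beside 48.5%), 12 higher (beside 28.8%) and 5 lower (beside 19.7%). These totals are 64.9%, 27% and 45.9% of the members. TNC, LOXL2, LOXL4 and PLOD1 were called higher in all 3 lines, beside 2.79% of all genes, and 0 members lower in all 3, beside 2.51%.

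With miR-429, 21 were called in HEY (beside 56.9%), 8 higher (beside 21.1%) and 13 lower (beside 35.8%). In SKOV3, 13 were called (beside 22.2%), 4 higher (beside 15%) and 9 lower (beside 7.24%). In PC3, 14 were called (beside 45.9%), 5 higher (beside 16.4%) and 9 lower (beside 29.5%). In SKOV3 with miR-429, the members' median difference was -0.29 against -0.01 for all genes. After quantile normalization that comparison held 2 higher members (beside 11.9% of all genes) and 11 lower (beside 10.3%). In 3 comparisons the count depended on which arrays entered the estimate of the spread. Without the arrays labelled untransfected, HEY with miR-203a had 15 called, SKOV3 with miR-205 had 19 and SKOV3 with miR-429 had 21. The share of all genes called in these refits is not given here, so the counts show only a dependence on the fit. The 3 comparisons in a line share their miR-NC arrays, so values in them are given side by side without a test of their likeness.

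**Figure D2:**
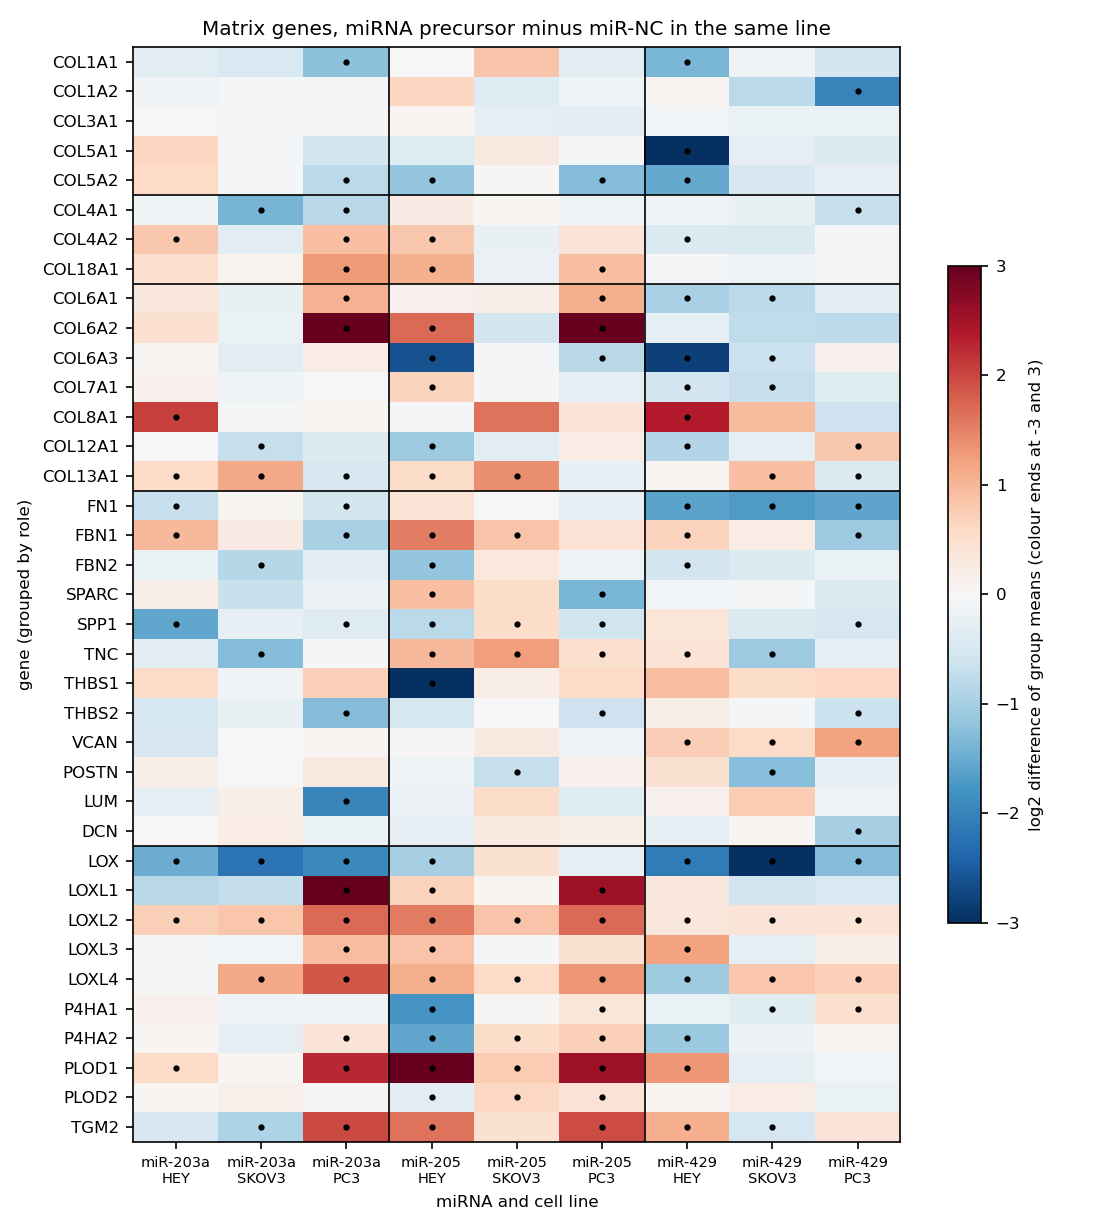
Log2 difference of each matrix gene from miR-NC of the same line (rows, grouped by role from fibrillar collagens at the top to enzymes at the bottom) for the 9 comparisons (columns). Red is higher and blue lower with the miRNA, and a black dot marks an adjusted p under 0.05. LOX is blue and dotted in all 3 miR-203a and all 3 miR-429 columns, FN1 in the 3 miR-429 columns, and LOXL2 is red and dotted in every column.

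The fibrillar collagens (COL1A1, COL1A2, COL3A1, COL5A1, COL5A2) were not called higher on their brightest probe sets in any of the 9 comparisons, and 3 of the 5 fell in HEY with miR-429. COL5A1 read 7.39, 7.33 and 7.66 with miR-NC and 4.43, 4.22 and 4.4 with miR-429, a difference of -3.11 (SE 0.25, adjusted p = 7.65e-13). The treated arrays lie below 4.89, so the size of this fall is limited by background, and a COL5A1 probe set that stayed above it, at 5.1, fell by 2.42 (adjusted p = 5.86e-08). COL5A2 went from 10.07, 10.06 and 10.03 to 8.53, 8.47 and 8.52 (-1.54, SE 0.34, adjusted p = 0.000207), and COL1A1 from 10.14, 10.08 and 9.95 to 9.19, 7.75 and 9.08 (-1.38, SE 0.52, adjusted p = 0.0221). Type V collagen, built from the first pair, is the minor fibrillar collagen that sets fibril diameter.

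In the other lines the COL5A1 differences were -0.29 (SKOV3) and -0.42 (PC3), neither called, and the lines differed (F-test of a difference between lines, adjusted p = 1.15e-08). The 2 other COL5A1 probe sets gave -1.34 (adjusted p = 0.00161) and -0.82 (adjusted p = 0.0746) in SKOV3, so whether COL5A1 was called there depended on the probe set. In PC3, miR-429 lowered COL1A2, the second chain of type I collagen, from 5.55, 4.54 and 4.99 to 2.86, 3.18 and 3.05 (-2, SE 0.39, adjusted p = 9.41e-05). Both groups lie near the background level. The brightest COL3A1 probe set was below 4.89 in every transfected group and was called in none of the 9 comparisons, with differences from -0.32 to 0.07. Another COL3A1 probe set, at 6.16 in PC3 with miR-NC, was called lower there with miR-203a (-1.75, adjusted p = 2.8e-07) and miR-205 (-1.26, adjusted p = 7.55e-05), to 4.42 and 4.91.

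In PC3 with miR-203a, COL1A1 and COL5A2 were called lower (-1.24, adjusted p = 0.0399, and -0.82, adjusted p = 0.0385). The COL1A1 call rests on its brightest probe set, since 2 of its 4 other probe sets were called higher, by up to 2.33. With miR-205, COL5A2 was lower in HEY (8.29, 9.25 and 9.17, a difference of -1.15, adjusted p = 0.00334) and in PC3 (10.54, 10.53 and 10.56, a difference of -1.3, adjusted p = 0.00175). In PC3 with miR-205, COL1A1 was not called on its brightest probe set, and 2 others were called higher, by 1.48 and 2.41. In SKOV3, no fibrillar collagen was called on its brightest probe set with any of the 3 miRNAs, while with miR-429 another probe set of COL5A1 (above) and another of COL1A1 (-0.85, adjusted p = 0.0359) were called lower.

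The basement membrane collagens gave a divergence within a gene pair. COL4A1 and COL4A2 encode the chains that wind into the common type IV collagen trimer, and they are transcribed away from each other from a shared promoter on chromosome 13. With miR-203a, COL4A1 fell in SKOV3 from 12.27, 12.45 and 12.3 to 11.07, 10.79 and 10.99 (-1.39, SE 0.11, adjusted p = 1.53e-11), while COL4A2 was at 12.44, 12.38 and 12.44 with miR-NC and 12.12, 12.03 and 12.15 with miR-203a (-0.32, SE 0.18, adjusted p = 0.315). In PC3, COL4A1 was lower by 0.83 (log2 difference -0.83, adjusted p = 1.41e-07) and COL4A2 higher by 0.91 (adjusted p = 4.56e-05). In HEY, COL4A1 was -0.12 (adjusted p = 0.605) and COL4A2 0.81 (11.12, 11.07 and 11.16 against 11.97, 11.86 and 11.93, adjusted p = 0.00159).

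Because both genes are read on the same array, the difference between them within an array removes the array's overall level. It does not remove a shift that differs between probe sets. With miR-203a the GAPDH 5′ control moved by 0.58 in HEY, 0 in SKOV3 and 4.95 in PC3, and its part was not tested. COL4A1 minus COL4A2 ran from -0.17 to 0.07 on the SKOV3 miR-NC arrays and from -1.23 to -1.05 on the SKOV3 miR-203a arrays, a change of -1.07. The change was -0.92 in HEY and -1.74 in PC3, and the arrays of the 2 groups did not overlap in any line. The exact two-sided permutation p was 0.1 in each line, the smallest that 3 arrays against 3 can give. With the second probe set of each gene the change was -1.19 in SKOV3 and -1.26 in PC3, but -0.02 in HEY (exact permutation p = 0.9). In SKOV3 both COL4A1 probe sets were called lower, by -1.39 and -1.43. In PC3 the second COL4A1 probe set was called higher, by 0.8, and the second COL4A2 probe set by 2.05, and in HEY both second probe sets were called higher, by 0.96 and 0.99.

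The stretch between the start sites of the pair is shown as their shared promoter, and its part in their divergence was not tested. It is RefSeq sequence on GRCh38.p14, the plus strand of chr13:110307158-110307283, 126 bases, with COL4A1 beginning to its left on the minus strand and COL4A2 to its right on the plus strand. Capitals mark a CCAAT and a GGGCGG match.
COL4A1-COL4A2: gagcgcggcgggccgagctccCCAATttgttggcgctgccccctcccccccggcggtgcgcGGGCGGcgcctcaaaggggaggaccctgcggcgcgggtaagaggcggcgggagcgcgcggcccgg
Searched on both strands, CCAAT (the letters bound by NF-Y) and GGGCGG (a GC box) each matched 1 time, and TATAAA matched 0 times. Over 35116 RefSeq promoter windows of the same length, each ending just before a start site, 21.1% hold CCAAT, 34.6% GGGCGG and 5.87% TATAAA. These shares are for orientation only. A match is a description of letters, not of a bound site.

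With miR-205 and miR-429 the change in COL4A1 minus COL4A2 lay between -0.64 and 0.33 over the 3 lines, and the exact permutation p was again 0.1 in each of these 6 comparisons, with no overlap of arrays. With the second probe sets it lay between -0.69 and -0.27. COL4A2 rose in HEY with miR-205 (11.97, 11.91 and 11.88, a difference of 0.8, adjusted p = 0.000166), and COL4A1 fell in PC3 with miR-429 (9.36, 9.07 and 9.27, a difference of -0.7, adjusted p = 7.19e-06). COL4A2 was called lower in HEY with miR-429 (-0.44), where its other probe set was called higher by 1. COL18A1, the source of endostatin, rose in PC3 with miR-203a (by 1.28) and miR-205 (by 0.91) and in HEY with miR-205 (by 1.07), the 3 comparisons in which the GAPDH 5′ control also rose by 3.66 log2 units or more.

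The beaded-filament and other collagens included the largest rise. COL6A2, a chain of type VI collagen, which anchors cells to the pericellular matrix, read 4.94, 5.12 and 5.85 in PC3 with miR-NC, 9.92, 9.7 and 9.48 with miR-203a and 8.81, 8.93 and 8.44 with miR-205. The differences were 4.4 (SE 0.34, adjusted p = 3.46e-13, 21.1-fold) and 3.42 (SE 0.34, adjusted p = 2.05e-10, 10.7-fold). Its second probe set rose by 1.51 and 1.04, both called. In HEY with miR-205 it rose from 5.16, 5.4 and 5.64 to 7.42, 7.24 and 6.61 (1.69, SE 0.34, adjusted p = 4.66e-05).

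COL6A2 was not called in SKOV3 with any miRNA (-0.19, -0.54 and -0.76), and its response differed between lines for miR-203a (F-test adjusted p = 1.44e-09). In PC3 its high groups are those in which the GAPDH 5′ control was high, at 9.62 to 10.37 with miR-203a and 8.11 to 9.28 with miR-205 against 3.94 to 6.29 with miR-NC, and the part of that shift was not tested. COL6A1 rose in the same PC3 groups by 1.05 and 1.07 and fell with miR-429 in HEY (10.82, 10.59 and 10.78 to 9.61, 9.85 and 9.83, a difference of -0.97) and in SKOV3 (6.71, 7.13 and 6.76 to 6.2, 6.07 and 6, a difference of -0.78, adjusted p = 0.00021).

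COL6A3, the third chain, did not follow the first pair. In HEY it fell from 6.74, 7.31 and 6.93 with miR-NC to 4.31, 4.7 and 4.17 with miR-205 (-2.61, SE 0.19, adjusted p = 1.15e-14) and to 4.09, 3.94 and 4.55 with miR-429 (-2.8, SE 0.19, adjusted p = 6.17e-15). Both treated groups are below 4.89, so the size of these falls is limited by background. In PC3 the COL6A3 difference with miR-205 was -0.83, and the lines differed for both miRNAs (F-test adjusted p = 6.87e-10 and 5.88e-11). In HEY with miR-205, COL6A2 therefore rose while COL6A3 fell, with no overlap between groups for either.

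COL8A1 was called higher in HEY with miR-429 (3.58, 4.04 and 4.16 to 6.45, 6.35 and 6.13, a difference of 2.38, SE 0.69, adjusted p = 0.00353) and with miR-203a (5.96, 5.87 and 6.06, a difference of 2.04, adjusted p = 0.0444). The SE is large, and the 3 arrays labelled untransfected HEY ranged from 3.05 to 9.25. The miR-203a call was lost when any 1 of the 6 arrays was left out (adjusted p from 0.0755 to 0.142). It was also lost after quantile normalization (adjusted p = 0.0924), with no filter on dim genes (0.0511), with the mean of the probe sets (0.79, adjusted p = 0.0986) and in a fit of HEY alone (0.346). The miR-429 call was lost in a fit of HEY alone (adjusted p = 0.0871). COL12A1, a fibril-associated collagen, fell in HEY with miR-205 and miR-429 (-1.09 and -0.89) and in SKOV3 with miR-203a (-0.69, adjusted p = 0.0216), and rose in PC3 with miR-429 from 10.03, 10.02 and 10.01 to 10.75, 10.84 and 10.89 (0.81, adjusted p = 0.00182). With the mean of its probe sets, the PC3 value was 0.25 and not called (adjusted p = 0.324).

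COL13A1 was called higher in 5 and lower in 2 of the 9 comparisons. It rose in SKOV3 with each miRNA (1.14, 1.4 and 0.91), where its miR-NC arrays lie at 3.17 to 3.67 and 2 of its 3 probe sets gave no call. In PC3, where it is strongly expressed, it was called lower with miR-203a (-0.49) while its other probe sets were called higher by 1.16 and 1.97. COL7A1, the anchoring-fibril collagen of skin, moved by 0.68 or less in size against miR-NC on its brightest probe set. A dimmer COL7A1 probe set was called higher in HEY with miR-205 (1.06) and in PC3 with miR-203a (0.8), and lower with miR-429 in SKOV3 (-0.95) and PC3 (-1.14).

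Among the glycoproteins, fibronectin (FN1) fell with miR-429 in all 3 lines. In HEY it went from 11.74, 11.58 and 11.62 with miR-NC to 10.09, 9.79 and 10.24. In SKOV3 it went from 12.6, 12.68 and 12.67 to 11, 10.85 and 11.04, and in PC3 from 11.67, 11.39 and 11.25 to 9.89, 9.75 and 9.9. No treated array reached a control array in any line.

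The differences were -1.61, -1.69 and -1.59 (SE 0.23 each), or 3.04-, 3.22- and 3.01-fold, with adjusted p = 3.56e-07, 8.61e-07 and 1.44e-06. The GAPDH 5′ control moved by -2.11, -0.04 and -0.5 in the same comparisons, and its part was not tested. The F-test found no difference between lines past the threshold (adjusted p = 0.957). Of the 6 other FN1 probe sets, 5 were called lower in HEY, 4 in SKOV3 and 5 in PC3, where 1 was called higher (by 1.61). With miR-203a, FN1 fell in HEY (11.04, 10.86 and 10.93, -0.7, adjusted p = 0.0403) and PC3 (10.97, 10.91 and 10.74, -0.56, adjusted p = 0.0393), with 0.05 in SKOV3. With miR-205 the brightest FN1 probe set was not called in any line (0.42, 0.01 and -0.25), while 2 others were called higher in HEY (0.67 and 1.45) and 2 lower in PC3 (-1.57 and -1.01). Over all genes, 2.04% were called lower in all 3 lines with miR-429, and among the members these were FN1 and LOX.

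VCAN (versican, a large proteoglycan that binds hyaluronan) rose with miR-429 in all 3 lines. It read 8.64, 8.83 and 8.73 in HEY with miR-NC and 9.39, 9.42 and 9.62 with miR-429 (0.74, SE 0.2, adjusted p = 0.00179). In PC3 it went from 8.35, 8.46 and 8.5 to 9.52, 9.8 and 9.58 (1.2, adjusted p = 9.44e-06), and in SKOV3 from 12.06, 11.97 and 12 to 12.53, 12.55 and 12.64 (0.57, adjusted p = 0.037). The arrays do not overlap, but the SKOV3 call was lost after quantile normalization (0.47, adjusted p = 0.0599) and on leaving out any 1 of the 6 arrays. Fibronectin and versican thus moved in opposite directions under the same precursor. Over all genes, 1.59% were called higher in all 3 lines with miR-429.

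**Figure D3:**
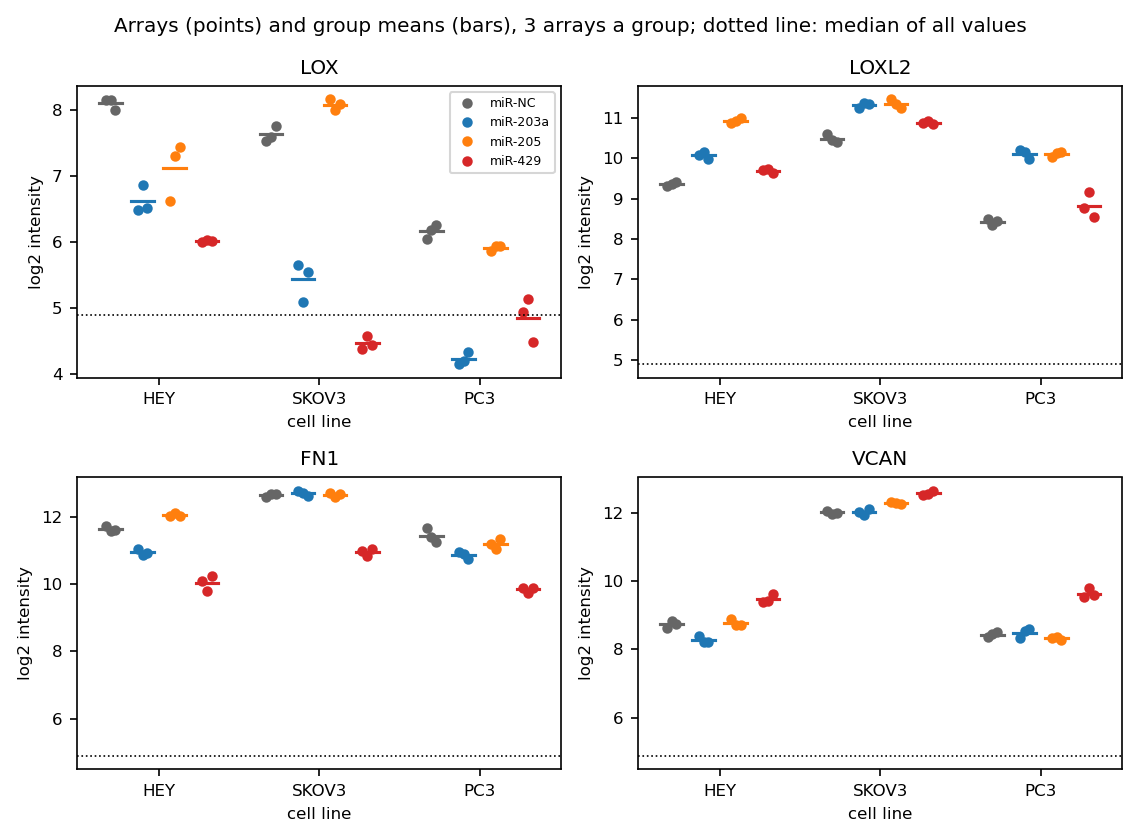
Log2 intensity of LOX, LOXL2, FN1 and VCAN on each array (points) with group means (bars), 3 arrays a group, for the 4 transfected groups of each line. The red miR-429 points of FN1 lie below the grey miR-NC points in HEY, SKOV3 and PC3, and those of VCAN lie above them. The axes differ between panels, and the dotted line is 4.89.

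TNC (tenascin-C, an adhesion-modulating glycoprotein) rose with miR-205 in all 3 lines on its brightest probe set. It went from 9.01, 9.01 and 8.93 to 9.41, 10.17 and 10.34 in HEY (0.98), from 7.26, 7.46 and 7.2 to 8.54, 8.42 and 8.71 in SKOV3 (1.25, SE 0.15, adjusted p = 2.93e-08) and from 9.28, 9.31 and 9.39 to 9.69, 9.65 and 10.08 in PC3 (0.48, adjusted p = 0.00711). The mean over its probe sets was 0.29 in SKOV3 (adjusted p = 0.098) and -0.34 in PC3 (adjusted p = 0.0276), so the PC3 direction depended on the probe set. In HEY with miR-205, 1 other TNC probe set was called higher (0.94) and 1 lower (-0.8), so the direction depended on the probe set there too. In SKOV3, TNC fell with miR-203a (5.8, 6.25 and 5.95, -1.31, adjusted p = 1.91e-08) and with miR-429 (6.34, 6.18 and 6.15, -1.09, adjusted p = 5.6e-07). For miR-429 the lines differed on the brightest probe set (F-test adjusted p = 8.59e-07), which was called higher in HEY (0.41). Another TNC probe set was called lower there, from 7.07 to 3.61 (-3.46), so the HEY direction depended on the probe set.

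THBS1 (thrombospondin 1, an activator of latent TGF-beta) fell in HEY with miR-205 on 1 probe set and on none of its others. The brightest probe set went from 9.88, 9.9 and 9.68 to 4.79, 5.84 and 6.08 (-4.25, SE 0.45, adjusted p = 2.62e-10). Its 6 other probe sets gave -0.18 to 1.26, with 3 called higher and none called lower. The mean over the THBS1 probe sets was -0.06 (adjusted p = 0.784). A direction for the gene in HEY with miR-205 cannot be read from these arrays. In HEY with miR-429 the brightest THBS1 probe set gave 0.93 and was not called, while its 6 others were called higher, by 0.47 to 2.79.

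FBN1 (fibrillin 1) rose in HEY with miR-203a (8.58, 8.84 and 8.89 to 9.56, 9.8 and 9.87, 0.97, adjusted p = 0.00106) and in SKOV3 with miR-205 (9.48, 9.59 and 9.62 to 10.5, 10.74 and 10.01, 0.85, adjusted p = 0.00184). It fell in PC3 with miR-429 (9.08, 8.99 and 9.4 to 8.05, 8.04 and 8.14, -1.08, adjusted p = 7.02e-05). FBN1 was also called lower in PC3 with miR-203a (-0.97). FBN2 fell in HEY with miR-205 (-1.15) and in SKOV3 with miR-203a (5.51, 5.92 and 5.35 to 4.66, 4.75 and 4.8, -0.85, adjusted p = 0.000453), the latter to below background and not called with the mean of its probe sets (-0.36, adjusted p = 0.0618). The 2 fibrillins did not share a direction in HEY with miR-205, where FBN1 was 1.53 higher, although 1 of the other FBN1 probe sets was called lower.

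SPP1 fell in HEY with miR-203a from 9.01, 9.15 and 8.96 to 7.32, 7.51 and 7.66 (-1.55, SE 0.17, adjusted p = 2.13e-08). LUM, above 4.89 only in PC3 among the transfected groups, fell there with miR-203a to 7.08, 7 and 7.45 (-1.99, SE 0.5, adjusted p = 0.000925). SPARC fell in PC3 with miR-205 (7.1, 7.08 and 6.54 to 6.06, 5.52 and 5.05, -1.36, adjusted p = 0.00262) and rose in HEY with miR-205 by 0.91 (adjusted p = 0.0311). These are secreted proteins that bind collagen or mineral, and no groups with array values given here overlapped.

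Periostin (POSTN), a partner of fibronectin and type I collagen, was above background in SKOV3 alone among the miR-NC groups. There it fell with miR-429 from 5.91, 6.43 and 6.5 to 5.13, 5.01 and 4.88 (-1.27, SE 0.23, adjusted p = 5.57e-05) and with miR-205 to 5.81, 5.45 and 5.51 (-0.69, adjusted p = 0.0234). The miR-205 call was lost on leaving out SKOV3 miR-NC array 2 or 3 or SKOV3 miR-205 array 2 or 3 (adjusted p from 0.0746 to 0.11). DCN (decorin) and THBS2 lay below or near background in PC3. There DCN was called lower with miR-429 (-0.99), and THBS2 with miR-203a (-1.3), miR-205 (-0.63) and miR-429 (-0.65).

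Among the enzymes, the lysyl oxidase family moved in both directions. LOX, the founding member that crosslinks collagen and elastin, fell with miR-203a and with miR-429 in all 3 lines. In HEY it read 8.16, 8.16 and 8.01 with miR-NC, 6.48, 6.86 and 6.51 with miR-203a and 6, 6.03 and 6.01 with miR-429. In SKOV3 it read 7.54, 7.6 and 7.77, then 5.65, 5.09 and 5.55, and 4.38, 4.57 and 4.44. In PC3 it read 6.04, 6.18 and 6.26, then 4.14, 4.19 and 4.33, and 4.94, 5.13 and 4.48. Every treated array of either miRNA lay below every control array of its line.

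The LOX differences with miR-203a were -1.5, -2.21 and -1.94 in HEY, SKOV3 and PC3 (SE 0.3 each, adjusted p = 0.000491, 7.81e-07 and 1.03e-06), and the F-test found no difference between lines past the threshold (adjusted p = 0.352). With miR-429 they were -2.1, -3.18 and -1.31 (adjusted p = 2.25e-07, 2.3e-10 and 0.000537), and these differed between lines (F-test adjusted p = 0.001). In SKOV3 with miR-429 the arrays ended below the background level, as did the PC3 means, so the size of these falls is limited by background. With miR-205, the brightest LOX probe set fell in HEY (6.63, 7.3 and 7.44, -0.99, adjusted p = 0.004) and was 0.45 in SKOV3 and -0.25 in PC3, neither called. Another LOX probe set was called higher in HEY with miR-205 (0.91), and the mean over its probe sets was -0.27 and not called (adjusted p = 0.46). The HEY call with miR-203a was lost in a fit of HEY alone (-1.5, adjusted p = 0.0649).

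LOX has 2 dimmer probe sets, which gave smaller values. In SKOV3 they were lower with miR-429 by -1.23 and -1.67, both called, and with miR-203a by -0.86 and -1.29, the latter called. In HEY and PC3 they were called with neither miR-203a nor miR-429, at -0.77 to 0.28. The mean of the 3 probe sets was -0.59 in HEY (adjusted p = 0.234) and -0.69 in PC3 (adjusted p = 0.0584) with miR-203a, and it stayed called in SKOV3 (-1.45, adjusted p = 0.00112). Over all genes, 1.44% were called lower in all 3 lines with miR-203a, and LOX was the member among them.

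LOXL2, a lysyl oxidase that acts on basement membrane type IV collagen, went the other way and was called higher in 9 of 9 comparisons. In SKOV3 it read 10.61, 10.44 and 10.41 with miR-NC, 11.24, 11.37 and 11.33 with miR-203a, 11.46, 11.34 and 11.24 with miR-205 and 10.86, 10.91 and 10.84 with miR-429. In HEY the readings were 9.31, 9.35 and 9.42, then 10.08, 10.15 and 9.98, 10.88, 10.92 and 10.99, and 9.71, 9.74 and 9.62. In PC3 they were 8.48, 8.34 and 8.45, then 10.2, 10.16 and 9.98, 10.04, 10.13 and 10.16, and 8.77, 9.16 and 8.53. No treated array overlapped its controls, and the 3 comparisons of a line share their control arrays.

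The LOXL2 differences were 0.71, 0.83 and 1.69 with miR-203a, 1.57, 0.86 and 1.69 with miR-205 and 0.33, 0.38 and 0.4 with miR-429, in HEY, SKOV3 and PC3 (SE 0.12 each). The first 6 had an adjusted p of 3.97e-05 or less, and the miR-429 values had 0.0164, 0.0145 and 0.00555. With the mean over its 4 probe sets the miR-429 values were 0.13, 0.16 and 0.05 and none was called (adjusted p = 0.298, 0.299 and 0.722), and 1 other probe set was called lower in PC3. The miR-205 values by that mean were 0.94, 0.29 and 1.08, all called, and with miR-203a that of SKOV3 was not (0.27, adjusted p = 0.0844). Leaving out PC3 miR-429 array 2 gave 0.23 (adjusted p = 0.112). In SKOV3 the miR-429 call was lost after quantile normalization (0.26, adjusted p = 0.125) and without SKOV3 miR-NC array 2 (adjusted p = 0.0531) or 3 (0.0642) or SKOV3 miR-429 array 2 (0.0509). In HEY it was lost without HEY miR-NC array 1 (adjusted p = 0.0541) or HEY miR-429 array 2 (0.0532).

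LOXL1 rose in PC3 from 5, 5.15 and 5.39 to 8.51, 8.24 and 8.28 with miR-203a (3.17, SE 0.31, adjusted p = 7.03e-11) and to 7.95, 7.66 and 7.58 with miR-205 (2.55, adjusted p = 1.18e-08). It was -0.84 in HEY and -0.71 in SKOV3 with miR-203a, neither called, and the lines differed (F-test adjusted p = 8.23e-10). LOXL4 was called higher in 7 of the 9 comparisons and lower in HEY with miR-429 (7.55, 7.46 and 7.65 to 6.5, 6.22 and 6.74, -1.07, adjusted p = 1.02e-06), against 0.83 in SKOV3 and 0.72 in PC3 (F-test adjusted p = 9.49e-09). The other LOXL4 probe set was called the opposite way in HEY (0.51) and in PC3 (-1.04), so the direction depended on the probe set there.

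In SKOV3, LOXL4 went from 5.96, 6.22 and 5.91 to 7.15, 7.24 and 7.11 with miR-203a (1.14), to 6.64, 6.64 and 6.54 with miR-205 (0.57) and to 6.8, 6.71 and 7.07 with miR-429 (0.83), all called. LOXL3 was called higher in HEY with miR-205 (0.85) and miR-429 (1.21) and in PC3 with miR-203a (0.92). Thus, on brightest probe sets, LOX was called lower 7 times and never higher over the 9 comparisons. LOXL1, LOXL2 and LOXL3 were called higher 3, 9 and 3 times and never lower, and LOXL4 was called in both directions.

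Of the hydroxylases, PLOD1, which hydroxylates lysines in the collagen helix, had the largest rise. It read 6.69, 6.86 and 6.96 in HEY with miR-NC and 10.22, 9.87 and 9.83 with miR-205 (3.14, SE 0.17, adjusted p = 1.83e-17, 8.8-fold). In PC3 it went from 6.46, 6.99 and 7 to 9.15, 9.16 and 8.92 with miR-203a (2.26) and 9.34, 9.36 and 9.36 with miR-205 (2.54). In SKOV3 with miR-205 it went from 8.39, 8.63 and 8.39 to 9.25, 9.22 and 9.25 (0.77, SE 0.17, adjusted p = 0.000832). The GAPDH 5′ control rose in the HEY and PC3 groups with these rises and moved by 0.01 in SKOV3. In HEY with miR-429, PLOD1 was higher by 1.3 (adjusted p = 6.91e-08), and the GAPDH 5′, middle and 3′ controls moved by -2.11, 1.65 and 1.31. The part of these controls was not tested.

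PLOD1 responses differed between lines for miR-203a (F-test adjusted p = 1.08e-08) and miR-205 (5.77e-10). PLOD2, which makes the telopeptide hydroxylysines used in stable crosslinks, rose with miR-205 in SKOV3 (9.24, 9.64 and 9.41 to 10.07, 10.05 and 10.08, 0.63, adjusted p = 7.23e-05) and PC3 (0.44) and fell in HEY (-0.31, adjusted p = 0.0229). Neither miR-203a nor miR-429 gave a call on its brightest probe set in any line, while the second was called higher in HEY with miR-429 (1.09, adjusted p = 5.19e-06) and in PC3 with miR-203a (0.79, adjusted p = 0.000495).

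The prolyl 4-hydroxylase subunits, needed for a stable triple helix, fell in HEY with miR-205. P4HA1 went from 10.74, 10.71 and 10.74 to 8.81, 9.02 and 9.01 (-1.78, SE 0.11, adjusted p = 3.44e-16). The differences were 0.03 in SKOV3 and 0.36 in PC3 (F-test adjusted p = 6.69e-14). P4HA2 went from 9.21, 9.34 and 9.19 to 7.59, 7.93 and 7.56 (-1.56), with 0.55 in SKOV3 and 0.71 in PC3, both called higher (F-test adjusted p = 1.09e-12). A second P4HA2 probe set was called higher in HEY by 0.83, so its direction there depends on the probe set.

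**Figure D4:**
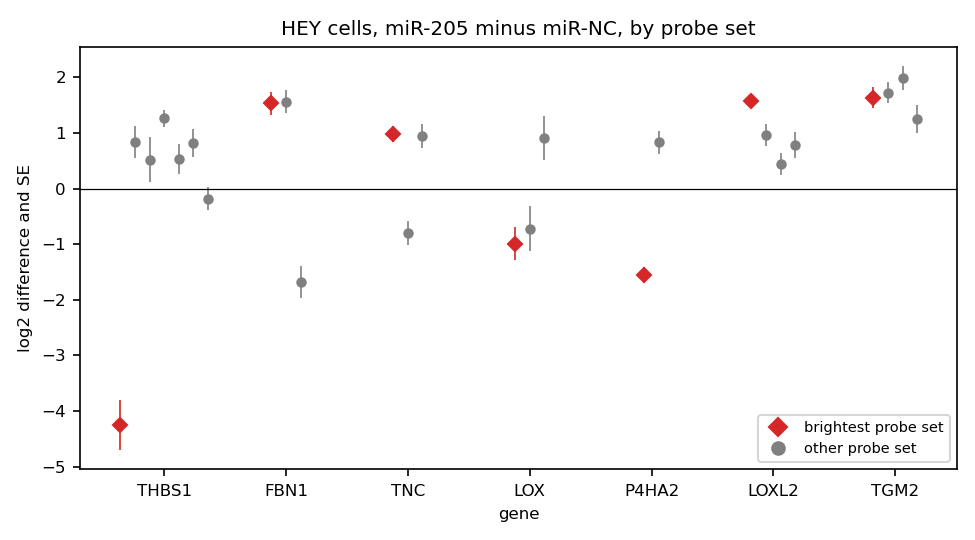
Log2 difference from miR-NC with SE for each probe set of 7 matrix genes in HEY cells with miR-205 (diamond, brightest probe set; circles, others). THBS1, FBN1, TNC, LOX and P4HA2 have probe sets on both sides of 0, while all those of LOXL2 and TGM2 lie above it.

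TGM2 rose in HEY with miR-205 from 10.88, 10.79 and 10.85 to 12.38, 12.51 and 12.53 (1.63, SE 0.19, adjusted p = 1.51e-09), with its 3 other probe sets called higher too, by 1.25 to 1.99. In PC3 it went from 7.73, 7.53 and 7.97 to 9.85, 9.73 and 9.61 with miR-203a (1.99, SE 0.19, adjusted p = 4.31e-11) and to 9.78, 9.61 and 9.71 with miR-205 (1.96, adjusted p = 8.59e-11). In SKOV3 it fell with miR-203a from 7.55, 7.62 and 7.57 to 6.57, 6.66 and 6.76 (-0.92, adjusted p = 0.000542). The lines differed for miR-203a (F-test adjusted p = 7.48e-11), with PC3 higher and SKOV3 lower.

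Of the 10 enzymes, 7 were called higher (beside 31.2% of all genes) and 1 lower (beside 25%) in PC3 with miR-203a, and 8 (beside 28.8%) and 0 (beside 19.7%) with miR-205. In HEY with miR-205, 6 were called higher (beside 33.7%) and 4 lower (beside 32.3%), and in SKOV3 with miR-205, 5 (beside 16.9%) and 0 (beside 8.83%). With miR-203a, 2 were higher and 1 lower in HEY (beside 5.87% and 7.32%) and 2 and 2 in SKOV3 (beside 7.11% and 4.91%). With miR-429 the counts were 4 and 3 in HEY (beside 21.1% and 35.8%), 2 and 3 in SKOV3 (beside 15% and 7.24%) and 3 and 1 in PC3 (beside 16.4% and 29.5%). Whether the enzymes differ from the other classes was not tested.

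The PC3 groups given miR-203a and miR-205 were also compared directly, since both had a high GAPDH 5′ control and differed from each other by 1.29 in it. Of the 37 members, 14 were called (beside 24.8% of all genes), 9 higher with miR-205 (beside 12.9%) and 5 lower (beside 12%). LOX was higher with miR-205 (5.86, 5.94 and 5.94 against 4.14, 4.19 and 4.33, 1.69, SE 0.3, adjusted p = 4.74e-05), and by the mean of its probe sets the difference was 0.7 and not called (adjusted p = 0.101). FBN1 was higher by 1.42 (adjusted p = 2.33e-06), LUM by 1.62 (adjusted p = 0.0148) and COL4A1 by 0.7 (adjusted p = 1.31e-05).

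The LUM call was lost without PC3 miR-203a array 1 or 2 (adjusted p = 0.0503 and 0.0536). COL6A3 was lower by 1.06 (log2 difference -1.06, adjusted p = 4.52e-05) and SPARC by 1.18 (-1.18, adjusted p = 0.0174). The SPARC call was lost without PC3 miR-203a array 1 (adjusted p = 0.0956) or PC3 miR-205 array 3 (0.107) and with the mean of its probe sets (-0.71, adjusted p = 0.267). For LOXL2 and TGM2 the differences were -0.01 and -0.03 (SE 0.12 and 0.19), and PLOD1 differed by 0.28 (SE 0.17), none of them called. The count fell to 7 without PC3 miR-203a array 1, to 8 without PC3 miR-205 array 1 and to 9 without PC3 miR-205 array 3.

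**Figure D5:**
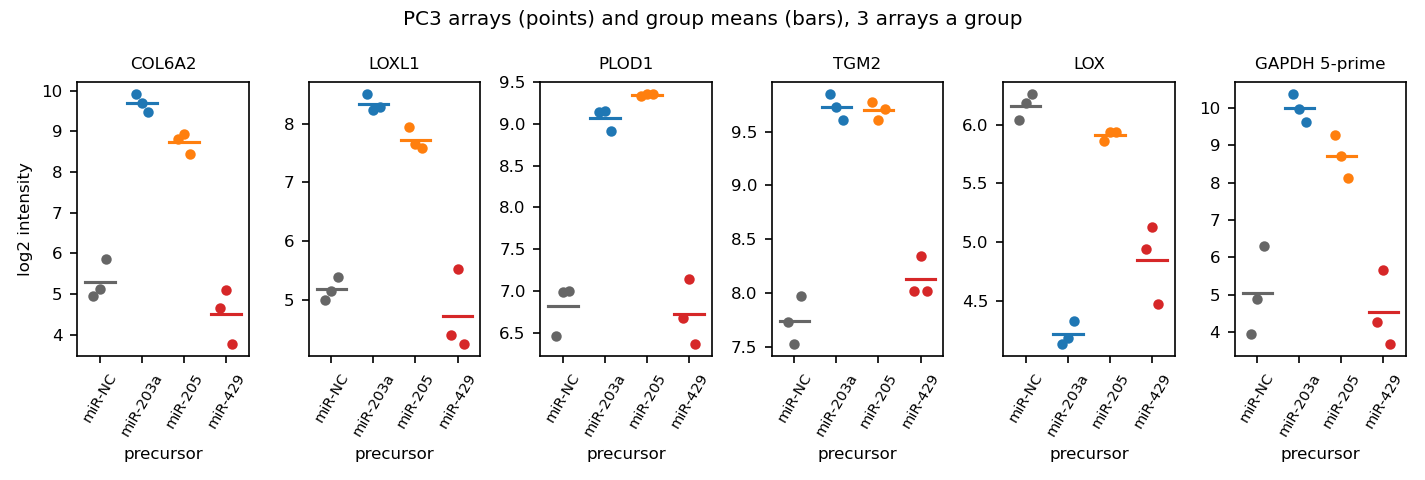
Log2 intensity of 5 matrix genes and of the GAPDH 5′ control probe set on each PC3 array (points) with group means (bars), 3 arrays a group. COL6A2, LOXL1, PLOD1 and TGM2 are high in the miR-203a and miR-205 groups, as the GAPDH 5′ control is, whereas LOX is low with miR-203a and miR-429 and near its control level with miR-205. The axes differ between panels.

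Other genes of the pathway were described from lists chosen by function. Of 21 other genes of collagen folding and processing, 12 were higher and 2 lower in PC3 with miR-203a (beside 31.2% and 25% of all genes, median 1.01 against 0.06). With miR-205 there 15 were higher and 1 lower (beside 28.8% and 19.7%, median 0.9), and with miR-429, 0 and 13 (beside 16.4% and 29.5%, median -0.51 against -0.12). In HEY the counts were 3 and 1 with miR-203a (beside 5.87% and 7.32%), 13 and 2 with miR-205 (beside 33.7% and 32.3%) and 8 and 4 with miR-429 (beside 21.1% and 35.8%). P4HB, the shared subunit of prolyl 4-hydroxylase, rose in PC3 by 2.72 with miR-203a and 2.31 with miR-205. CRTAP, part of the prolyl 3-hydroxylation complex, fell with miR-429 in SKOV3 (-2.47, SE 0.16, adjusted p = 1.68e-14) and in PC3 (-1.66, adjusted p = 4.11e-10). In SKOV3, 1 of the 21 was called higher and 0 lower with miR-203a (beside 7.11% and 4.91%), 5 and 2 with miR-205 (beside 16.9% and 8.83%) and 0 and 5 with miR-429 (beside 15% and 7.24%).

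PPIB, a collagen prolyl isomerase, rose in HEY by 3.38 with miR-205 and by 3.64 with miR-429. The GAPDH 5′, middle and 3′ controls moved by 3.92, 3.94 and 1.48 with miR-205 and by -2.11, 1.65 and 1.31 with miR-429, and their part was not tested. Among 15 other collagen chains tested, COL4A6 fell in HEY with each miRNA (-0.72, -2.24 and -2.66) and in PC3 with miR-203a (-2.34) and miR-205 (-1.84). Of 10 TGF-beta ligands, receptors and SMADs, 1 was higher (beside 33.7% of all genes) and 8 lower (beside 32.3%) in HEY with miR-205 (median -0.83 against 0.06), including SMAD4 at -2.98. With miR-203a the counts higher and lower were 3 and 2 in HEY (beside 5.87% and 7.32%) and 2 and 1 in SKOV3 (beside 7.11% and 4.91%). In PC3 they were 3 and 1 (beside 31.2% and 25%). With miR-205 they were 5 and 1 in SKOV3 (beside 16.9% and 8.83%) and 2 and 1 in PC3 (beside 28.8% and 19.7%). With miR-429 they were 0 and 6 in HEY (beside 21.1% and 35.8%) and 3 and 2 in SKOV3 (beside 15% and 7.24%). In PC3 with miR-429 they were 2 and 0 (beside 16.4% and 29.5%). Of the 14 collagen and fibronectin receptors tested, ITGA1, a collagen-binding integrin chain, fell with miR-429 in HEY (-2.03), SKOV3 (-1.25) and PC3 (-1.19), ending below 4.89 in HEY and SKOV3. The folding and TGF-beta lists were described by counts, but the other collagen chains and the receptors only by a named gene. A list of 33 other matrix glycoproteins and proteoglycans is not described here. No list was tested as a set.

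The response to a miRNA differed between the lines for 20 of the 37 members with miR-203a (F-test, beside 45% of all genes), for 25 with miR-205 (beside 69.8%) and for 21 with miR-429 (beside 66.6%).

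Over the 9 comparisons the members were called 137 times. For 110 of these calls the gene has another probe set that passed the filter, and for 59 at least 1 other probe set was called the same way. For 18 it was called the opposite way, all in HEY or PC3. They are COL1A1, COL4A1 and COL13A1 in PC3 with miR-203a, TNC in PC3 with miR-205, FN1, LOXL2 and LOXL4 in PC3 with miR-429, FBN1, TNC, THBS1, LOX and P4HA2 in HEY with miR-205, and COL4A2, COL6A1, COL12A1, FBN1, TNC and LOXL4 in HEY with miR-429. The values of single probe sets come from a fit of all 31153 probe sets that passed the filter.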

How the data were processed

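Expression was measured on 45 Affymetrix arrays. The authors deposited 1 table of log2 intensities for 54675 probe sets, made with RMA per the submitters' processing notes; the RNA was amplified from its 3′ end and biotin-labelled per the labels' protocols. RMA smooths differences between arrays, and the number of arrays, not a read depth, limits precision. Of the probe sets, 41097 are annotated to 1 gene symbol, 1801 to several and 11777 to none, and 41043 matched RefSeq by gene ID. Each gene is its brightest such probe set, tested if its highest group mean exceeded 4.89. One limma model (version 3.58.1, R 4.3.3) of 15 group means, with 30 residual and 5.24 prior degrees of freedom, gave two-sided moderated tests and F-tests, with Benjamini-Hochberg adjustment over 15511 genes at 0.05. It was tested on simulated data. Groups came from the titles.

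The members and lists were chosen with earlier results of these data known. Array values are given for up to 6 called members per comparison, with arrays that do not overlap and the largest changes. The members called alike in 3 lines, and those whose probe sets disagree, are named too. A member at or below 4.89 in both groups is not among the 6. Other members and other arrays' values were chosen by role after they were seen. Alternatives were quantile normalization, 2 other filters, the mean over probe sets, fits without the arrays labelled untransfected or of 1 line, a replicate block, and each array left out.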

Additional observations from a re-analysis of the deposited data

Results flagged for a closer look

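The response of the matrix genes to a miRNA differed between HEY, SKOV3 and PC3 by the F-test for 20 of 37 members with miR-203a (beside 45% of all genes), 25 with miR-205 (beside 69.8%) and 21 with miR-429 (beside 66.6%). With miR-203a the lowest adjusted p-values were those of TGM2 (7.48e-11), LOXL1 (8.23e-10), COL6A2 (1.44e-09) and PLOD1 (1.08e-08), where PC3 was highest. With miR-205 they were those of P4HA1 (6.69e-14), P4HA2 (1.09e-12), PLOD1 (5.77e-10) and COL6A3 (6.87e-10), where HEY stood apart from SKOV3. With miR-429 they were those of COL6A3 (5.88e-11), LOXL4 (9.49e-09), COL5A1 (1.15e-08) and TNC (8.59e-07). In HEY the direction of P4HA2 with miR-205 and of LOXL4 and TNC with miR-429 depended on the probe set. The GAPDH 5′ control shifted in HEY and PC3 groups and hardly in SKOV3, so a difference between lines and a difference in RNA state cannot be told apart here.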

How the results depend on the processing

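Called members numbered 15 in HEY with miR-203a, 19 in SKOV3 with miR-205 and 21 in SKOV3 with miR-429 without the arrays labelled untransfected, and 5, 17 and 21 in a fit of each line alone, against 9, 10 and 13. Shares of all genes are not given for these refits. Leaving out 1 array gave 7 to 14 called members for PC3 miR-205 against miR-203a. The other counts stayed within 1.5 times their value under each alternative run. Reversed values were TNC in PC3 with miR-205 (-0.34 by the mean of its probe sets) and, on leaving out 1 array, 2 differences of PC3 miR-205 against miR-203a that were near 0 and not called: TGM2 (from -0.09 to 0.03, with 0.01 and 0.03 above 0) and LOXL2 (from -0.07 to 0.04, with 0.02, 0.03 and 0.04 above 0). Of 701 other values of named members, 679 kept their direction and side of the threshold, 20 lost the call and 1 gained it. Of 774 with 1 array left out, 738 kept both and 31 lost the call. Quantile normalization moved the share of all called genes that were higher from 65.7% to 53.2% in SKOV3 with miR-205 and from 67.4% to 53.5% in SKOV3 with miR-429. The median of all genes was -0.15 in HEY and -0.12 in PC3 with miR-429 (-0.13 and -0.01 after quantile normalization). Replicate numbers did not pair the samples: same-numbered deviations correlated at -0.153 to 0.127 over 27 pairs, and 9 of the 27 correlated best with their own number. A replicate block gave 10 members in HEY with miR-203a against 9, 21 in PC3 against HEY with miR-NC against 22, and 24 for the miR-205 difference between lines against 25, with the other counts equal. Values near 4.89 are compressed by background.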
